A study of Mus musculus with 6 samples.

Results

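The 39 genes described here are known imprinted genes of the mouse, 39 of the 49315 genes in the count table. They were chosen by name from the textbook list of imprinted genes, after Igf2, Nnat and Slc38a4 had been seen at higher levels in late cells of this experiment. The late values of those 3 genes are therefore a description and are given without a test, and no direction of the group as a whole counts as evidence. By background knowledge, 23 of the genes are expressed from the paternal allele, 15 from the maternal allele, and Gnas from both depending on promoter and tissue. They lie in 17 loci on 10 chromosomes. The counts do not separate the 2 alleles, so whether any of these genes was imprinted in these cells was not measured.

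Genomic imprinting silences one parental copy of a gene through DNA methylation laid down in the egg or sperm. Many imprinted genes lie in clusters in which a methylated control region sets which neighbours are read from which chromosome, often with a long noncoding RNA expressed from the opposite allele to the protein-coding genes. As a group they are known for control of fetal and placental growth, and several, among them Igf2, H19, Dlk1, Mest and Peg3, are abundant in the embryo and are turned down in most tissues after birth.

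The experiment sequenced polyadenylated RNA of wild-type mouse cells from tail-tip skin, with 2 libraries in each of 3 groups. Fibroblasts (day 0) had received negative lentiviral vectors, early cells (day 7) the vectors of the SAM system of CRISPR activation, and late cells (day 22) the same activation vectors followed by isolation of colonies, after which they are labelled progenitors. CRISPR activation recruits transcriptional activators to chosen promoters by means of a catalytically dead Cas9, and the target genes were not among the sources used here. Early replicate 2 is labelled partially reprogrammed, and nothing in the labels ties a replicate to a culture or an animal of its own, so a p-value here reflects the spread of 2 libraries a group, which may be technical.

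Total counts were between 20172874 and 40122999 per library, and 3 counts, taken as the floor, stood for 0.0842 to 0.142 CPM (counts scaled to a common library size after TMM normalisation). The early and late columns of the table were assigned by name; a wrong reading would swap the 2 groups. The 2 libraries of a group were most alike in fibroblasts (Pearson r = 0.978 over genes) and least alike in late cells (r = 0.883), and early replicate 1 correlated with late replicate 1 at 0.945 and with its own partner at 0.939. Late replicate 2 stood apart. The 10 cardiomyocyte markers summed to 17.8 and 127 CPM in fibroblasts, 18.2 and 52.3 CPM in early cells, 78.4 CPM in late replicate 1 but 49100 CPM in its partner, and none of the 10 was at 0 in any library. Mitochondrial transcripts took 10.3% of the counts of late replicate 2 and 1.48% to 2.16% in the other libraries. The 10 fibroblast markers summed to between 2900 and 13000 CPM in all 6 libraries, with 1 of the 10 at 0 in early replicate 1. The sums hide members that differed. In early replicate 1 Col3a1 was at 17 CPM and Dcn at 3.21 CPM, against 3890 and 679 CPM in its partner, while Col1a1 was at 1910 and 3450 CPM. S100a4 was at 1450 and 939 CPM in fibroblasts and fell to 128 and 156 CPM in early and 110 and 68.1 CPM in late cells (edgeR adjusted p = 0.0415 and 0.0379).

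The data bear on promoters only through genes that share a pattern across the libraries, and 5 such promoters are shown because their genes were highest in both late libraries and a motif tied to imprinting occurs in them. Sequences are from the RefSeq promoter table for GRCm38.p6, 250 bases before to 50 bases after an annotated start, written 5′ to 3′ on the strand of the gene. The windows are chr6:30737800-30738099 on the plus strand for Mest, chr10:13090582-13090881 on the plus strand for Plagl1, chr2:157559828-157560127 on the plus strand for Nnat, chr1:63200108-63200407 on the plus strand for the upstream start of Zdbf2, and chr7:6730370-6730669 on the minus strand for Peg3. Capitals mark TGCCGC on either strand (GCGGCA on the other), the core of the motif of Zfp57, the zinc-finger protein that keeps methylation at imprinted control regions, and in Peg3 the palindrome GGGGCCCC, a motif of the zinc-finger factor encoded by Plagl1.
Mest: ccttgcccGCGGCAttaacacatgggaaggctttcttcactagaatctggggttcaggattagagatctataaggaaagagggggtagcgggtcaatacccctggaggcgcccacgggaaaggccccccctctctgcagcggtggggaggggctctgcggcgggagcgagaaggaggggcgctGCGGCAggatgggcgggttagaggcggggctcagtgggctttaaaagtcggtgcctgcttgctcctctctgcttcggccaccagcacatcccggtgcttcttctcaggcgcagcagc
Plagl1: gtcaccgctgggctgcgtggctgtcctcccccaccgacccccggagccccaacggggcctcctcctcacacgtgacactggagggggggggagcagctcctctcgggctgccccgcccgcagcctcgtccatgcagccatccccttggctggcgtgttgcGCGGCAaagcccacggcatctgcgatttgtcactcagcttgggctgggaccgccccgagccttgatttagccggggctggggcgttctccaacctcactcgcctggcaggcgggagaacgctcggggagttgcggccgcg
Nnat: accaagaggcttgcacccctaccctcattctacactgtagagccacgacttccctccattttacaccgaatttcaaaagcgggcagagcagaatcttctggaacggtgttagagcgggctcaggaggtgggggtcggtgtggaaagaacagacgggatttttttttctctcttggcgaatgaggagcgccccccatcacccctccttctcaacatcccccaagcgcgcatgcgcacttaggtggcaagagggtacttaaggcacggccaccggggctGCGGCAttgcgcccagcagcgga
Zdbf2: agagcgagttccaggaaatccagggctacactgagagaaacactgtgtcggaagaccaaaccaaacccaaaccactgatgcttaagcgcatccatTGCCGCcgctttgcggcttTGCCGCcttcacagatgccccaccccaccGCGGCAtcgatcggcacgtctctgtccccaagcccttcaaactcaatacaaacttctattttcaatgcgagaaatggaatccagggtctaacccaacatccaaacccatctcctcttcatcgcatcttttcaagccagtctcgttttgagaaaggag
Peg3: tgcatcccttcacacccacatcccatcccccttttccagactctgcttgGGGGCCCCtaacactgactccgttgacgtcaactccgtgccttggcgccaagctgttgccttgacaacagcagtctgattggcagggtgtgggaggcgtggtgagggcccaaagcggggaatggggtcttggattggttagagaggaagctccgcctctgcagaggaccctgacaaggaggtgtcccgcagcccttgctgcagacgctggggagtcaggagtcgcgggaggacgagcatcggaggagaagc
The counted Zdbf2 gene begins at 63273265, downstream of the window shown, and the window at that start (chr1:63273019-63273318) holds no match. Igf2, Meg3, Usp29 and Zim1 also had a match and were highest in both late libraries, and are not shown for brevity. Grb10, Snrpn and Ppp1r9a had a match too but were not highest in both late libraries. Other genes highest in both late libraries, among them Dlk1, Phlda2, Ascl2, Asb4, Magel2 and Slc38a4, had windows without a match. A tie between the motifs and the late pattern was not tested. A window was present for 31 of the 39 genes, for some of them several, which made 49. TGCCGC, searched on both strands, was in 10 of the 49 (20.4%), against 3813 of the table's 32851 windows (11.6%). The 10 include 2 windows of Mest that start 3 bases apart and hold the same sites, and windows of the imprinted genes held a median of 11 CG dinucleotides, against 7 over all windows, with a CG in the motif itself. GGGGCCCC, which reads the same on both strands and cannot overlap TGCCGC, was in 3 of the 49 (6.12%), against 354 of all windows (1.08%). Of those 3, the windows of Peg3 and Usp29 overlap by 263 bases and hold the same site, since the 2 genes start 164 bases apart on opposite strands. A match is a run of letters, and neither binding nor methylation was measured.

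Many of the imprinted genes had their highest values in both late libraries, among them H19, Peg10 and Peg3. A smaller set with high levels in fibroblasts, among them Grb10, Impact, Ndn and Sgce, was lower in early and late cells. Of the genes other than Igf2, Nnat and Slc38a4, for whose late values no test is given, none passed the test across all genes, so these are differences in level, shown library by library. Both late libraries were above all 4 others for 22 of the 38 genes that passed the expression filter, 13 of them paternally and 9 maternally expressed, a pattern held by 7.62% of all tested genes. The 22 include Igf2, Nnat and Slc38a4, whose late values chose the list. They also include 6 genes that would not have passed the filter without the late libraries (Ascl2, Magel2, Phlda2, Rtl1, Usp29 and Zim1). These 6 had to be high in late cells, Zim1 in at least 1 late library and the rest in both. Without these 6 and without Igf2, Nnat and Slc38a4, 13 of 29 genes had the pattern. All these counts are descriptions, and nothing is read from them against the shares over all genes. Both early libraries were below both fibroblast and both late libraries for 12 genes, against 9.01% of all. Taken singly, late replicate 1 was above the other 4 for 25 genes, 22 of which were among those highest in both, and late replicate 2 for 24, where 15.1% and 23.9% of all tested genes were. For 8 of the 22 (Igf2, Cdkn1c, Peg10, Asb4, Mest, Nnat, Plagl1 and Zdbf2) both early libraries also lay below both fibroblast libraries, a pattern held by 1.4% of all tested genes; Igf2 and Nnat left out, 6 of the 8 remain. In bulk RNA, more cells of a type and more RNA per cell cannot be told apart.

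**Figure D1:**
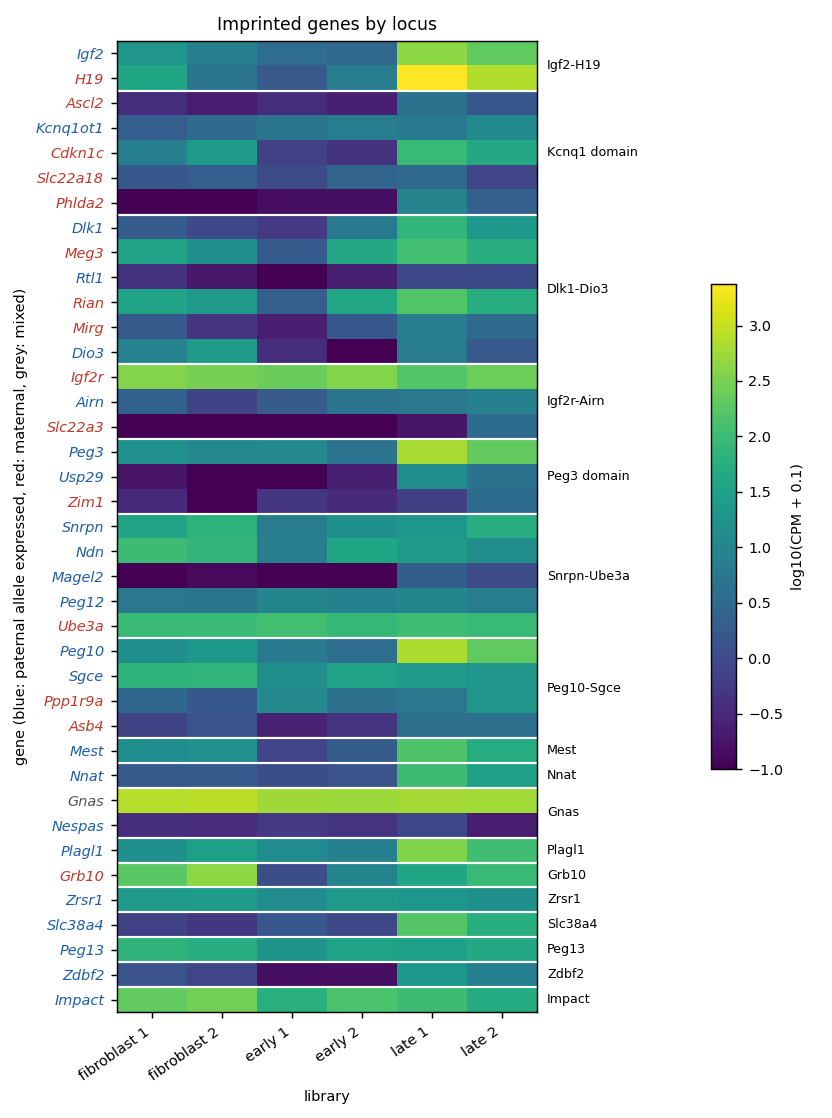
Level of each of the 39 imprinted genes (rows, grouped by locus) in each of the 6 libraries (columns), as log10 of CPM plus 0.1. Blue names are paternally and red names maternally expressed by background knowledge. Of the 38 tested genes, 22 are brighter in both late columns than in the other 4, as is the untested Slc22a3. Sgce, Ndn and Impact are dimmer in both late columns than in fibroblasts.

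Chromosome 7 carries the Igf2-H19 locus, in which a growth factor and a noncoding RNA are read from opposite alleles. Igf2, the fetal growth factor (chr7:142650766-142666816 on the minus strand, GRCm38), was at 19.2 and 8.03 CPM in fibroblasts, 3.52 and 3.22 CPM in early cells and 425 and 200 CPM in late cells. It was lowest in early cells, with no overlap between any of the groups, at a log2 fold change of -2.01 ± 0.56 (SE) for early over fibroblast cells (edgeR adjusted p = 0.095). Late cells stood at 4.52 ± 0.62 over fibroblasts and 6.53 ± 0.68 over early cells on the log2 scale, which are values that chose the genes.

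H19, the maternally expressed noncoding RNA beside it (chr7:142575529-142578143 on the minus strand), was at 38.6 and 4.68 CPM in fibroblasts, 1.56 and 7.15 CPM in early cells and 2390 and 751 CPM in late cells. Fibroblast and early libraries overlapped, and both late libraries lay far above them (log2 fold change over fibroblasts 6.18 ± 1.49, adjusted p = 0.0769). Per length, H19 reached 973 and 305 RPKM (CPM per kilobase of merged exons) in late cells and ranked 15th of all listed genes in late replicate 1. Its RPKM was 4.69 and 1.35 times that of Igf2 in fibroblasts, 1.03 and 5.17 times in early cells and 13.1 and 8.74 times in late cells. The maternally and the paternally expressed gene of this locus were thus both highest in late cells.

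Downstream in the same region, Cdkn1c, which encodes the cell-cycle inhibitor p57, was lower in early and higher in late cells than in fibroblasts. Its level was 7.79 and 24.5 CPM in fibroblasts, 0.624 and 0.331 CPM in early cells and 93.6 and 43.7 CPM in late cells. The 3 groups did not overlap. Early over fibroblast it stood at -5.06 ± 0.83 (adjusted p = 0.0556) and late over fibroblast at 2.09 ± 0.69 (adjusted p = 0.117), on the log2 scale. Kcnq1ot1, the paternally expressed RNA that silences this domain in cis, was at 1.95 and 3.27 CPM in fibroblasts, 4.9 and 7.05 CPM in early cells and 6 and 11.7 CPM in late cells, with both early and late libraries above fibroblasts and overlapping each other (late over fibroblast 1.77 ± 0.58, adjusted p = 0.113).

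Phlda2, a restrainer of placental growth, had no count in either fibroblast library, 2 counts in early cells in total and 291 in late cells, at 8.96 and 2.13 CPM. Late cells were at least 104-fold higher than fibroblasts, with 3 counts taken as the floor over the group, and 106 times early cells (95% counting interval 29.2 to 883). Ascl2, a transcription factor of the placenta, was at 0.269 and 0.118 CPM in fibroblasts, 0.267 and 0.142 CPM in early cells and 4.33 and 1.49 CPM in late cells. Slc22a18, an organic cation transporter, overlapped between all 3 groups, within 0.73 to 3.13 CPM. Exons of Cdkn1c lie opposite a predicted gene over 30.7% of their length, and no source used here gives the strand setting of the counts.

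**Figure D2:**
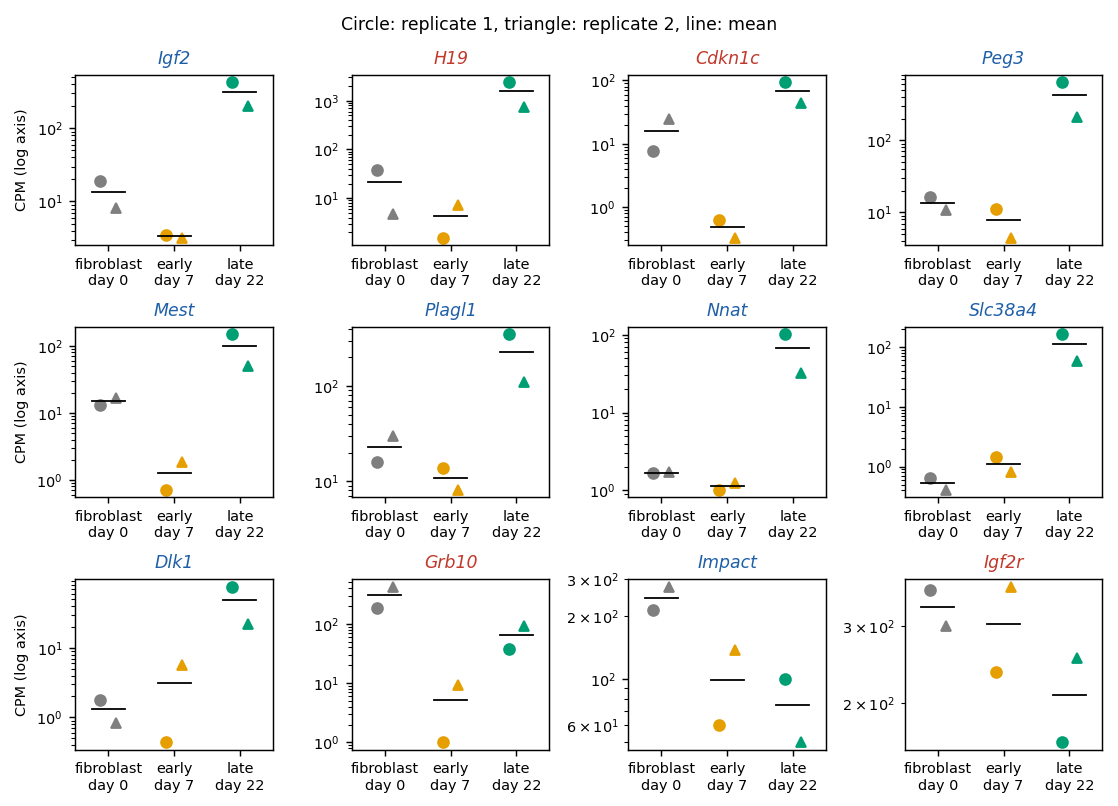
CPM (log axis, a scale for each gene) of 12 imprinted genes in fibroblasts (day 0), early cells (day 7) and late cells (day 22); circles are replicate 1, triangles replicate 2 and lines the mean of the 2. For 9 of the 12 (Igf2 to Dlk1) both late libraries lie above the other 4, while Grb10, Impact and Igf2r have late means below the fibroblast mean.

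The Dlk1-Dio3 region of chromosome 12 carries paternally expressed coding genes and maternally expressed noncoding RNAs. Dlk1, a membrane protein that holds back adipocyte differentiation, was at 1.78 and 0.824 CPM in fibroblasts, 0.445 and 5.73 CPM in early cells and 75.4 and 21.8 CPM in late cells. The late libraries were above the rest (log2 fold change over fibroblasts 5.22 ± 1.4, adjusted p = 0.0857), and the early libraries lay on either side of the fibroblasts.

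Meg3, the noncoding RNA that opens the maternal transcripts of the region, was at 33.4 and 15.9 CPM in fibroblasts, 1.78 and 44.4 CPM in early cells and 112 and 53.3 CPM in late cells. Rian, a host of small nucleolar RNAs further along the same strand, was at 35.9 and 22.1 CPM in fibroblasts, 2.05 and 39.8 CPM in early cells and 155 and 54.1 CPM in late cells. Both were low in early replicate 1 alone, and the early libraries differed more from each other than late from fibroblast cells. Mirg, a host of microRNAs, was at 1.65 and 0.382 CPM in fibroblasts, 0.134 and 1.51 CPM in early cells and 7.25 and 3.17 CPM in late cells, again lowest in early replicate 1.

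The ratio of Meg3 to Rian, per length, stayed between 0.722 and 1.12 in all 6 libraries although the level of each gene differed widely between libraries. Meg3 over Dlk1 was 5.87 and 6.02 in fibroblasts, 1.25 and 2.43 in early cells and 0.465 and 0.763 in late cells: per length, Dlk1 exceeded Meg3 only in late cells. At the far end, Dio3, the enzyme that inactivates thyroid hormone, went another way, at 9 and 26.2 CPM in fibroblasts, 0.267 and 0 CPM in early cells and 6.67 and 1.57 CPM in late cells. It was close to or at 0 in early cells (log2 fold change over fibroblasts -6.97 ± 1.59, adjusted p = 0.0758) and lower in late cells than in fibroblasts without overlap (-2.10 ± 1.22, adjusted p = 0.28). Rtl1, a retrotransposon-derived gene of placenta and muscle, stayed at or below 0.871 CPM in every library.

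**Figure D3:**
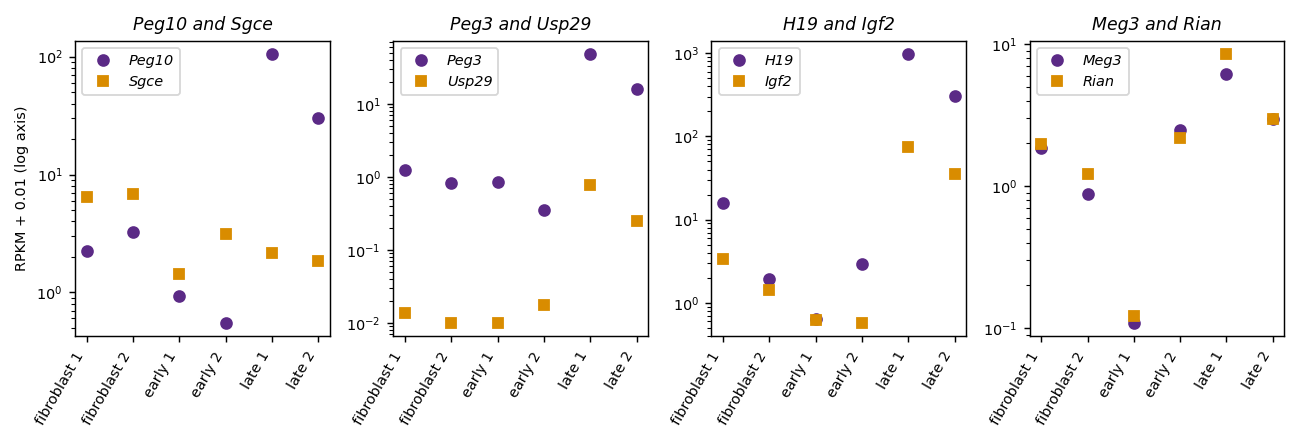
RPKM plus 0.01 (log axis) in each library for 4 pairs of neighbouring imprinted genes. Peg10 and Sgce part in late cells, Peg3 and Usp29 are both highest there, H19 lies above Igf2 in every library, and Meg3 and Rian lie within 0.722 to 1.12 of each other throughout.

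Peg10 and Sgce are both paternally expressed and start 99 bases apart on opposite strands of chromosome 6. Peg10, a retrotransposon-derived gene needed for the placenta (chr6:4747306-4760517), was at 14.9 and 21.7 CPM in fibroblasts, 6.15 and 3.6 CPM in early cells and 699 and 202 CPM in late cells. Its late libraries were far above the fibroblasts (log2 fold change 4.62 ± 0.73, adjusted p = 0.0556). Sgce, epsilon-sarcoglycan of the dystrophin-associated complex (chr6:4674350-4747207), was at 67.7 and 72.1 CPM in fibroblasts, 15 and 33 CPM in early cells and 22.7 and 19.3 CPM in late cells. Early over fibroblast it stood at -1.54 ± 0.41 (adjusted p = 0.0873) and late over fibroblast at -1.73 ± 0.41 (adjusted p = 0.0758), on the log2 scale. Per length, Peg10 over Sgce was 49.1 and 16.7 in late cells, against 0.351 and 0.479 in fibroblasts. The 2 neighbours thus lay on opposite sides of the fibroblasts in late cells, and on the same side in early cells.

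Of the 2 maternally expressed genes further along, Asb4, an ankyrin-repeat protein of a ubiquitin ligase, was at 0.705 and 1.24 CPM in fibroblasts, 0.178 and 0.379 CPM in early cells and 3.96 and 4.02 CPM in late cells. Ppp1r9a, the actin-binding protein neurabin, was at 2.82 and 1.53 CPM in fibroblasts, 11.4 and 4.02 CPM in early cells and 5.29 and 19 CPM in late cells, with both early and both late libraries above both fibroblast libraries.

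On proximal chromosome 7, Peg3, a zinc-finger protein tied to growth and maternal behaviour (chr7:6703892-6730431 on the minus strand), was at 16.6 and 10.7 CPM in fibroblasts, 11.3 and 4.5 CPM in early cells and 636 and 211 CPM in late cells. Early and fibroblast libraries overlapped (log2 fold change -0.79 ± 0.68, adjusted p = 0.477) and both late libraries lay above them (4.95 ± 0.79 over fibroblasts, adjusted p = 0.0556). Usp29, the deubiquitinase gene that shares its promoter region with Peg3, had 2 counts in fibroblasts, 3 in early cells and 488 in late cells. That was 261 times the fibroblasts (95% counting interval 71.9 to 2160). Peg3 exceeded Usp29 62.3 and 65.3 times per length in the 2 late libraries, a similar proportion in both although each gene was higher in late replicate 1. Zim1, a maternally expressed zinc-finger gene of the domain, was at 0.235 and 0 CPM in fibroblasts, 0.401 and 0.237 CPM in early cells and 0.584 and 3.4 CPM in late cells, and it was late replicate 2 that held more.

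The Snrpn-Ube3a region of chromosome 7, whose loss in the human counterpart causes Prader-Willi and Angelman syndromes, had both late libraries above the other 4 for Magel2 and for none of its 4 other genes. Ndn, the growth suppressor necdin, was at 101 and 75.2 CPM in fibroblasts, 6.99 and 37.9 CPM in early cells and 25.7 and 14.5 CPM in late cells. All 4 libraries of activated cells were below both fibroblast libraries (early over fibroblast -1.97 ± 0.81, adjusted p = 0.178; late over fibroblast -2.13 ± 0.81, adjusted p = 0.144). Snrpn, a spliceosomal protein gene, was at 36 and 67.7 CPM in fibroblasts, 6.86 and 15.4 CPM in early cells and 21 and 53.9 CPM in late cells. It was low in both early libraries (-2.22 ± 0.67 over fibroblasts, adjusted p = 0.105), and late and fibroblast libraries overlapped.

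Ube3a, a ubiquitin ligase imprinted in neurons and read from both alleles elsewhere, was at 92.7 and 91.6 CPM in fibroblasts, 113 and 81.2 CPM in early cells and 104 and 91 CPM in late cells. Its groups overlapped throughout, with log2 fold changes of 0.07 ± 0.23 for early and 0.08 ± 0.23 for late cells over fibroblasts. Peg12 stayed between 4.82 and 9.67 CPM, with all 4 early and late libraries above both fibroblast libraries. Magel2, a relative of Ndn, had 1 count in fibroblasts, none in early cells and 77 in late cells, where it reached 1.88 and 0.899 CPM. The late-to-fibroblast ratio was 82.4, with a 95% counting interval of 14.4 to 3300.

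In the Igf2r-Airn locus of chromosome 17, Igf2r, the maternally expressed receptor that clears IGF2 to lysosomes, was abundant throughout, at 363 and 300 CPM in fibroblasts, 236 and 369 CPM in early cells and 163 and 254 CPM in late cells. Late libraries were below fibroblasts without overlap, by a small amount (log2 fold change -0.67 ± 0.35, adjusted p = 0.237). Airn, the paternally expressed RNA that silences Igf2r in cis, was at 2.18 and 0.706 CPM in fibroblasts, 1.69 and 4.68 CPM in early cells and 5.25 and 8.12 CPM in late cells (late over fibroblast 2.21 ± 0.84, adjusted p = 0.144). Per length, Igf2r over Airn was 64.2 and 164 in fibroblasts, 53.9 and 30.5 in early cells and 12 and 12.1 in late cells. Slc22a3, a cation transporter of the same locus, did not pass the expression filter. It had no counts in fibroblast and early cells and 123 in late cells, at 0.0834 CPM in replicate 1 and 3.4 CPM in replicate 2, so nearly all came from late replicate 2.

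Among genes that stand alone, Mest, a hydrolase-fold protein of mesoderm, was at 13.2 and 16.4 CPM in fibroblasts, 0.713 and 1.85 CPM in early cells and 148 and 50.7 CPM in late cells. The groups did not overlap, with early cells lowest (log2 fold change over fibroblasts -3.53 ± 0.72, adjusted p = 0.068) and late cells highest (2.75 ± 0.67, adjusted p = 0.0781). Its exons lie opposite those of Copg2 over 23.1% of their length. Plagl1, the zinc-finger factor named above for its motif, was at 15.8 and 29.5 CPM in fibroblasts, 13.6 and 8.14 CPM in early cells and 347 and 110 CPM in late cells (late over fibroblast 3.34 ± 0.69, adjusted p = 0.0656).

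Nnat, neuronatin, a small membrane protein of the endoplasmic reticulum (chr2:157560078-157562522), was at 1.65 and 1.74 CPM in fibroblasts, 1.02 and 1.23 CPM in early cells and 101 and 32.5 CPM in late cells. Late cells stood at 5.29 ± 0.65 over fibroblasts on the log2 scale, which helped choose the genes, and early cells were below fibroblasts without overlap by a small amount (-0.58 ± 0.58, adjusted p = 0.539). Slc38a4, an amino acid transporter of liver and placenta (chr15:96994820-97055956), was at 0.638 and 0.412 CPM in fibroblasts, 1.43 and 0.804 CPM in early cells and 162 and 58.6 CPM in late cells. It was the one of the 3 that was higher in early than in fibroblast libraries without overlap (1.09 ± 0.63, adjusted p = 0.303), and late cells stood at 7.71 ± 0.76 over fibroblasts. Zdbf2, a zinc-finger gene of postnatal growth, was at 1.24 and 0.735 CPM in fibroblasts, 0.0445 and 0.0473 CPM in early cells and 21.5 and 7.69 CPM in late cells. It had 2 counts in early cells, and its fibroblast-to-early ratio was 21.2 (95% counting interval 5.62 to 179). Late over fibroblast it stood at 3.88 ± 0.72 on the log2 scale (adjusted p = 0.0608).

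A set of imprinted genes that were abundant in fibroblasts had no late gain over them. Grb10, an adaptor that restrains insulin and IGF1 receptor signalling, was at 184 and 424 CPM in fibroblasts, 1.02 and 9.28 CPM in early cells and 38.3 and 92.5 CPM in late cells. Early libraries were far below the rest (log2 fold change over fibroblasts -5.88 ± 1.26, adjusted p = 0.0712), and late libraries lay between the 2 other groups without overlap (-2.21 ± 1.06 over fibroblasts, adjusted p = 0.21). Impact, an inhibitor of the stress kinase GCN2, was at 213 and 277 CPM in fibroblasts, 60 and 137 CPM in early cells and 99.6 and 49.8 CPM in late cells (late over fibroblast -1.71 ± 0.53, adjusted p = 0.106). Peg13, a noncoding RNA within an intron, was at 69.3 and 54.4 CPM in fibroblasts, 18.4 and 33.8 CPM in early cells and 30.4 and 43.3 CPM in late cells, with both early and both late libraries below the fibroblasts. Gnas, the stimulatory G protein alpha subunit and the gene with the highest mean level on the log2 CPM scale among the 39, was at 783 and 851 CPM in fibroblasts, 568 and 552 CPM in early cells and 622 and 600 CPM in late cells, and its early libraries stood at -0.55 ± 0.22 (adjusted p = 0.175) and its late libraries at -0.42 ± 0.22 (adjusted p = 0.242) over fibroblasts on the log2 scale. Zrsr1, a splicing factor gene, stayed between 12.7 and 26.2 CPM. Nespas, an antisense RNA of the Gnas locus, was not abundant in fibroblasts and is not of this set. It stayed at or below 0.75 CPM, and its late libraries overlapped the fibroblasts.

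**Figure D4:**
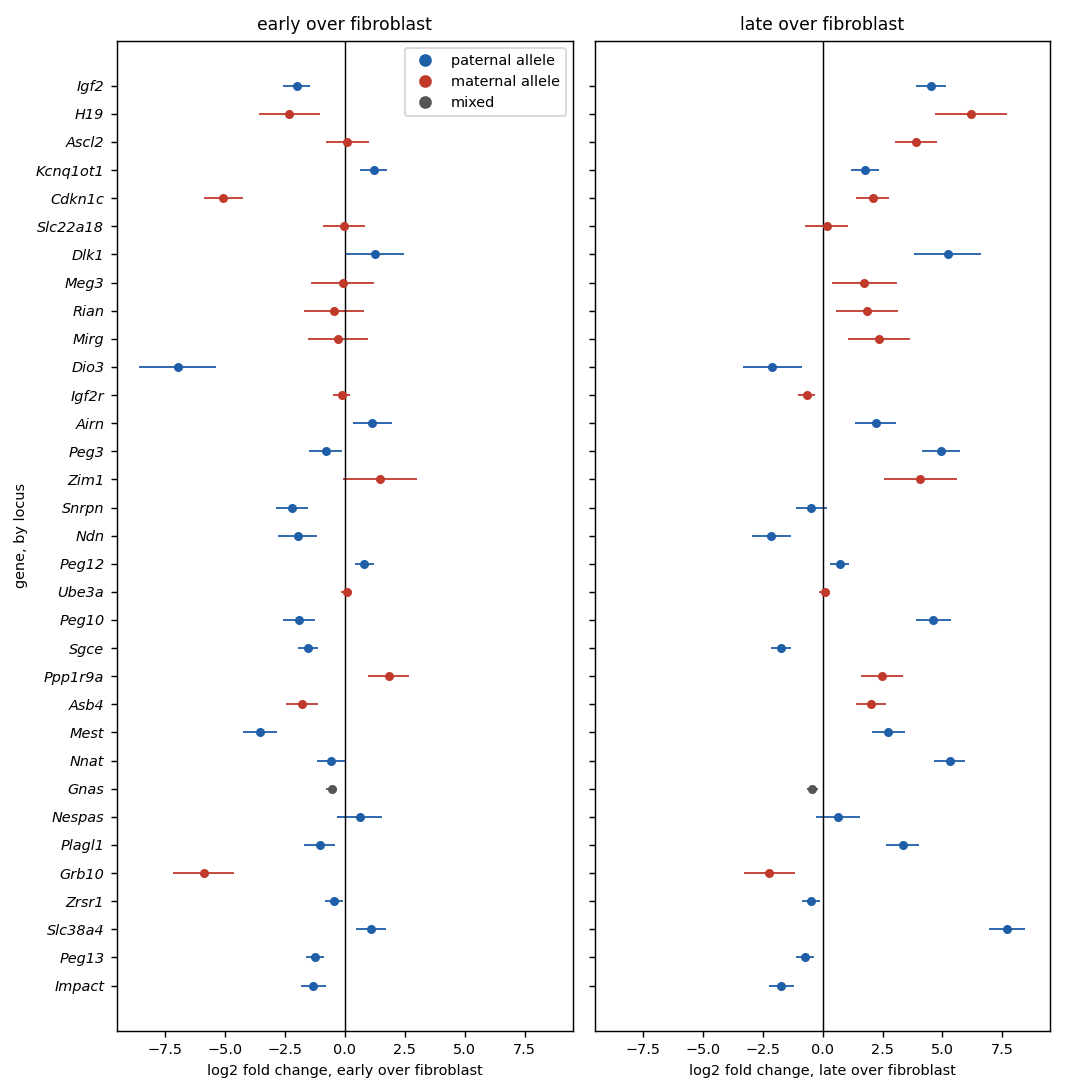
Log2 fold change (horizontal axis) with its standard error (bars) for early over fibroblast cells (left) and late over fibroblast cells (right), for 33 imprinted genes in order of locus; genes with 3 counts or fewer in a whole group are left out. Early cells are mostly left of 0 and late cells mostly right of it. Dio3, Igf2r, Snrpn, Ndn, Sgce, Gnas, Grb10, Zrsr1, Peg13 and Impact are left of 0 in both.

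The comparison of early cells with fibroblasts asks what differed at day 7. Of the 38 tested genes, 26 were lower and 12 higher in early cells by the fitted value, with a median log2 fold change of -0.56 against 0.0 over all tested genes, of which 50.2% were higher. Early libraries lay below both fibroblast libraries for 16 (34.4% of all tested genes did) and above for 7 (32.3%). Taken singly, early replicate 1 was below both fibroblasts for 25 genes and early replicate 2 for 18, of which 16 were shared, where 47.2% and 43.7% of all tested genes were. None of the 38 passed an adjusted p of 0.05 in edgeR's quasi-likelihood test, which called 1.53% of all tested genes. At an unadjusted p under 0.05 there were 11, all lower in early cells, beside 29.8% of all genes (15.3% higher, 14.5% lower), and DESeq2 called 11, beside 25.2% of all genes. The largest differences, in order of fitted size and leaving out genes with few counts, were those of Dio3, Grb10, Cdkn1c and Mest.

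The comparison of late cells with fibroblasts asks what differed in the isolated colonies at day 22. Leaving out Igf2, Nnat and Slc38a4, 25 of 35 tested genes were higher and 10 lower in late cells, with a median log2 fold change of 2.0 against 0.11 over all genes, of which 54.1% were higher. Late libraries lay above both fibroblast libraries for 22 of the 35 and below for 9, where 35.7% and 32.9% of all genes did. None of the 35 passed an adjusted p of 0.05 in edgeR's test, which called 1.42% of all genes, and the smallest adjusted p was 0.0556. At an unadjusted p under 0.05 there were 20 (17 higher and 3 lower) beside 32.5% of all genes (17.2% higher, 15.3% lower). DESeq2 called 20 of the 35, 16 of them higher in late cells, beside 28.1% of all genes. Some of the genes would not have passed the filter without the late libraries, which favours high late values. The contrast also chose the genes, so nothing is read from these counts. With genes of few counts set to their ratio or bound, the median was again 2.0.

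The comparison of late with early cells had 29 of the 35 higher and 6 lower in late cells, with a median log2 fold change of 2.63 against -0.03 over all genes, of which 47.1% were higher, and 23 above without overlap and 0 below, where 16.1% and 17.6% of all genes were. In this contrast edgeR called 0.0% of all genes, none of the 35 (17 at an unadjusted p under 0.05, all higher, beside 10.2% of all genes, 7.42% higher and 2.82% lower), and its smallest adjusted p among them was 0.254. DESeq2 called 15, beside 5.57% of all genes. Of the 23, 6 would not have passed the filter without the late libraries, which favours high late values. Without such genes 17 of 29 were above without overlap and 0 below. The late level of these genes bore on how the list was chosen, so here too nothing is read from the counts. The 3 comparisons share libraries, so their counts are not independent of each other.

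By parental class, with Igf2, Nnat and Slc38a4 left out, 13 of 20 paternally expressed and 12 of 14 maternally expressed genes were higher in late cells than in fibroblasts, with medians of 1.88 and 2.06. Over all tested genes 54.1% were higher. The counts include Magel2, Rtl1 and Usp29 (paternal) and Ascl2, Phlda2 and Zim1 (maternal). These would not have passed the filter without the late libraries, which favours high late values, so nothing is read from the counts. In early cells over fibroblasts 6 of 20 paternally expressed and 5 of 14 maternally expressed genes were higher, with medians of -1.28 and -0.11, where 50.2% of all tested genes were higher. Both classes held genes of each pattern, and the difference between the classes was not tested.

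The 2 late libraries were not equal. Among the 22 genes that were highest in both, 18 were higher in late replicate 1, each by 2.09 to 4.2 times, with a median ratio of 2.92. H19 alone made up 36.3% and 24.2% of the CPM of all 39 genes in the late libraries, and the sum of the others was 2120 and 2430 CPM in fibroblasts, 1110 and 1430 CPM in early cells and 4200 and 2350 CPM in late cells. The sum without H19 thus lay above every other library in late replicate 1 but not in late replicate 2. Over the tested imprinted genes, the 2 replicates differed by a median of 0.69 on the log2 scale in fibroblasts, 0.87 in early cells and 1.31 in late cells, against 0.26, 0.47 and 0.45 over all genes.

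**Figure D5:**
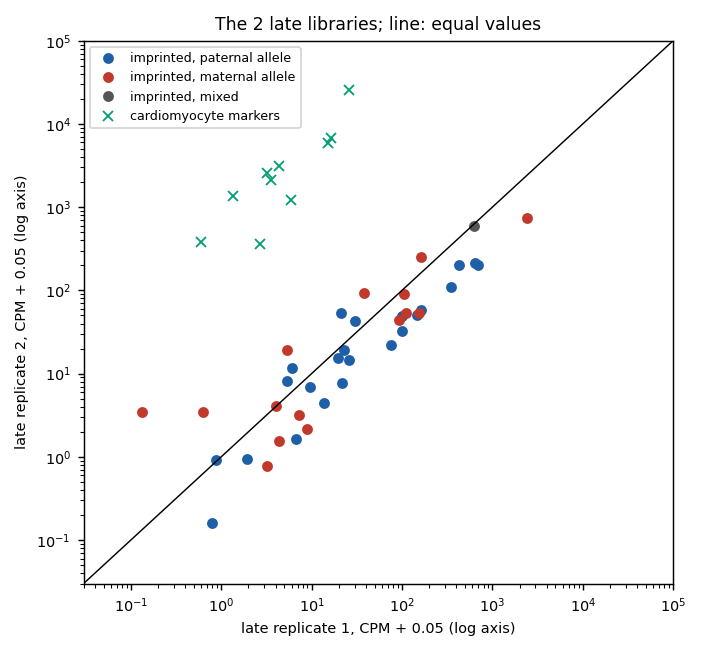
CPM plus 0.05 (log axes) of each imprinted gene in late replicate 1 (horizontal) and late replicate 2 (vertical), with the 10 cardiomyocyte markers as crosses; the line marks equal values. Most imprinted genes lie below the line, while all crosses lie far above it, their sums being 78.4 CPM in replicate 1 and 49100 CPM in replicate 2.

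Markers of several other cell types were high in late replicate 2 alone. The 8 endothelial markers summed to 11.6 and 15.6 CPM in fibroblasts, 6.64 and 5.16 CPM in early cells, 27.4 CPM in late replicate 1 but 784 CPM in its partner. The 6 erythroid markers summed to 1040 CPM in late replicate 2 and to 0.47 to 2.91 CPM in the other 5 libraries. Adipocyte markers stood at 287 CPM in late replicate 2, of which Fabp4 made up 246 CPM, and at 6.64 to 12.9 CPM elsewhere. The 7 skeletal muscle markers summed to 1500 CPM in late replicate 2 and to 7.52 to 43.5 CPM elsewhere. Ckm, which heart muscle also expresses, made up 1410 CPM of the sum in late replicate 2. Myod1 and Myog were at 0 in every library, and Myf5 and Myh3 stayed at or below 0.417 CPM. Pax7 was at 0 in fibroblasts, 14.3 and 6.67 CPM in early cells and 1.79 and 0.281 CPM in late cells. Acta1 was at 7.02 and 7.0 CPM in fibroblasts, 28.7 and 27.0 CPM in early cells and 25.1 and 85.6 CPM in late cells. The 10 proliferation markers summed to 144 and 122 CPM in fibroblasts, 2270 and 433 CPM in early cells and 1160 and 1120 CPM in late cells. The sums of smooth muscle markers (231 to 3200 CPM) and leukocyte markers (50.9 to 1080 CPM) were highest in fibroblast replicate 2, but members differed. Acta2, Tagln and Cnn1 were highest there, at 2710, 353 and 37.7 CPM. Myh11, Myocd and Smtn were highest in late replicate 2, at 73.3, 49.4 and 242 CPM, against 42.9, 0.206 and 49.5 CPM in fibroblast replicate 2. Of the leukocyte markers, Cd14 was highest in early replicate 1 (111 CPM) and the others in fibroblast replicate 2. The sum of keratinocyte markers stayed at or below 10.7 CPM and that of neural markers within 49.2 to 123 CPM. The neural sum hides members that went opposite ways. Sox2 was at 72.4 and 25.9 CPM in fibroblasts, 2.58 and 2.51 CPM in early cells and 9.67 and 1.29 CPM in late cells. Tubb3 was at 8.16 and 23.0 CPM in fibroblasts, 116 and 118 CPM in early cells and 74.3 and 39.6 CPM in late cells. There were only 2 late libraries. Any gene higher in late replicate 1, such as the 18 above, thus has its higher value where the cardiomyocyte sum was low. The part of these cell types in the values of the imprinted genes was not tested.

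Other genes of the pathway were taken by list. Of 22 genes for the upkeep of imprints and DNA methylation, 19 were tested, and 16 were higher in early and 15 in late cells than in fibroblasts, of which 1 rose in early cells and 0 in late cells. Of all tested genes, 50.2% were higher in early and 54.1% in late cells, and 1.53% and 1.42% were called in either direction. The list's median log2 fold change was 0.70 in early and 0.79 in late cells, against 0.0 and 0.11 over all tested genes. The gene that rose was Zfp57, at 35 and 22.2 CPM in early cells against 3.83 and 3.65 CPM in fibroblasts (log2 fold change 2.94 ± 0.41, adjusted p = 0.0468). In late cells Zfp57 was at 24.5 and 15 CPM (2.40 ± 0.40 over fibroblasts, adjusted p = 0.0564). The de novo methyltransferase Dnmt3a was at 23 and 26.4 CPM in fibroblasts, 40.6 and 34.9 CPM in early cells and 69.8 and 144 CPM in late cells (late over fibroblast adjusted p = 0.0608). Tet3, which oxidises methylcytosine, was at 22.6 and 20.1 CPM in fibroblasts, 39.3 and 42.9 CPM in early cells and 53.7 and 67.5 CPM in late cells (late over fibroblast adjusted p = 0.0519). Its relative Tet1 was at 1.31 and 1.0 CPM in fibroblasts, 2.36 and 4.16 CPM in early cells and 6.46 and 11.9 CPM in late cells (adjusted p = 0.0654).

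A list of 44 further imprinted genes had 31 tested members, 12 higher in early and 13 higher in late cells than in fibroblasts, with medians of -0.29 and -0.38. Over all tested genes 50.2% and 54.1% were higher, and 1.53% and 1.42% were called in either direction. Atp10a, a phospholipid flippase, was the 1 gene that rose in early cells, at 86.1 and 44 CPM against 6.65 and 7.53 CPM in fibroblasts (log2 fold change 3.20 ± 0.39, adjusted p = 0.0408). It was at 40.8 and 36.6 CPM in late cells (adjusted p = 0.0556). None of that list was called in late cells. Igf2os, antisense to Igf2 and not separable from it where they overlap unless strand was used, was at 5.63 and 2.78 CPM in late cells against 0.235 and 0.206 CPM in fibroblasts (4.23 on the log2 scale, adjusted p = 0.0556), Qpct, glutaminyl cyclase, at 10.4 and 7.13 CPM against 150 and 52.5 CPM (-3.53, adjusted p = 0.0564), and Ddc, dopa decarboxylase, at 4.29 and 9.15 CPM against 0 and 0.118 CPM (adjusted p = 0.0658).

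On the receiving side of IGF2, 7 receptors, adaptors and RNA-binding proteins were tested, 5 were higher in early and 5 in late cells than in fibroblasts, and 0 were called. Beside these, 50.2% and 54.1% of all tested genes were higher, and 1.53% and 1.42% were called in either direction. Igf2bp1, which binds Igf2 mRNA, was at 3.39 and 1.91 CPM in fibroblasts, 5.12 and 7.9 CPM in early cells and 42.6 and 10.4 CPM in late cells (late over fibroblast 3.32, adjusted p = 0.0781). Its relative Igf2bp3 was at 28.3 and 9.46 CPM in late cells against 5.54 and 8.82 CPM in fibroblasts (adjusted p = 0.181). Igf1r, the signalling receptor for IGF2, was at 172 and 122 CPM in late cells against 241 and 329 CPM in fibroblasts (adjusted p = 0.0946), and its adaptor Irs1 at 17.5 and 21.9 CPM against 63.5 and 66.0 CPM (adjusted p = 0.119).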

How the data were processed

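The 6 mouse libraries were made by poly(A) selection according to the labels. Values are whole-number read counts for each Ensembl gene, as the authors deposited them, with no scaling. The submitters' processing notes list Trimmomatic 0.36, STAR 2.5.2b, featureCounts, Subread 1.5.2 and the build GRCm38. Strand setting, annotation release and the handling of multi-mapping reads were not given in the sources used here, so counts of overlapping genes are uncertain. Igf2 shares 62.8% of its exon bases with a predicted gene on its own strand and Ube3a has 27.3% opposite other transcripts.

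Symbols and exon lengths came from GENCODE M21 on GRCm38 (49056 of 49315 identifiers had a symbol) and promoter sequences from RefSeq. Counts were fitted in R 4.3.3 with edgeR 4.0.16: default expression filter (16688 genes; 38 of the 39 imprinted genes, Slc22a3 being the other), TMM scaling, a robust quasi-likelihood model of 3 group means over all 6 libraries without a block (3 residual degrees of freedom, common biological coefficient of variation 48.6%) and Benjamini-Hochberg adjustment over all tested genes. Words such as rose or fell are kept for an adjusted p under 0.05. A standard error is the log2 fold change over the square root of F. CPM use TMM library sizes, and RPKM divides them by merged exon length and serves comparisons between genes. Totals per library were 20172874 to 40122999 counts. Intervals (exact, 95%) and the floor of 3 counts cover counting error only.

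The imprinted genes and lists were chosen with earlier results of these data known. Every library's value is given for Igf2, Nnat and Slc38a4, for called genes, for the 12 with the highest mean log2 CPM and for pairs of opposite alleles; others shown in full were added after their values were seen. Of each list, the 4 genes with the smallest adjusted p in late over fibroblast cells and any called gene are named. Alternatives were DESeq2 1.42.0, upper-quartile scaling, no filter, the replicate number as a block, only the 4 libraries compared, and leaving out each library.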

Additional observations from a re-analysis of the deposited data

How the results depend on the processing

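With edgeR, 0 imprinted genes were called in each comparison, Igf2, Nnat and Slc38a4 left out of the late ones. DESeq2 called 11 for early over fibroblast, 20 for late over fibroblast and 15 for late over early cells, beside 25.2%, 28.1% and 5.57% of all genes, where edgeR called 1.53%, 1.42% and 0.0%. Without the filter on low counts the numbers were 5, 6 and 6, beside 7.31%, 7.81% and 0.864% of all genes, and with only the 4 libraries compared they were 3, 2 and 0, beside 9.42%, 6.14% and 0.0%. Leaving out each library in turn gave 0 to 3 for early over fibroblast, 0 to 3 for late over fibroblast and 0 to 5 for late over early cells, while over all genes it gave 0 to 823, 0 to 1058 and 0 to 602 calls. Without late replicate 1 the late over early calls were Cdkn1c, Mest, Peg10, Peg3 and Zdbf2 and the late over fibroblast calls Peg10, Peg3 and Phlda2. Without late replicate 2 the early over fibroblast calls were Cdkn1c, Mest and Zdbf2, and Sgce was called in early over fibroblast cells without early replicate 2 and in late over fibroblast cells without either early replicate. The cause was not tested. Upper-quartile scaling gave 0 in each and moved the median of all genes from 0.11 to 0.22 in late over fibroblast cells. The labels share replicate numbers across groups, but differences between replicates correlated at 0.121, 0.238 and 0.0859 between groups, so the numbers were not taken to pair the libraries; with the replicate block 0 were called in each comparison, and 26, 9 and 0 genes in all. Of 824 alternative log2 fold changes with a test, for 27 imprinted genes, 740 kept their direction and side of the threshold, 65 passed the threshold that they had missed, and 19 changed sign, all on leaving out a library; the 66 late values of Igf2, Nnat and Slc38a4, which have no test, kept their direction. Over left-out libraries, early over fibroblast ranged over -1.5 to 2.14 for Dlk1, -0.45 to 0.16 for Igf2r, -3.75 to 0.86 for Meg3, -3.78 to 0.46 for Rian and -0.18 to 0.33 for Ube3a. Late over fibroblast ranged over -1.31 to 0.04 for Snrpn and -0.11 to 0.17 for Ube3a. Late over early ranged over -0.01 to 0.15 for Gnas, -1.09 to 0.27 for Impact, -0.93 to 1.47 for Ndn, -0.68 to 0.43 for Sgce and -0.27 to 0.24 for Ube3a. Taking the late and early libraries one at a time, as the text does, was chosen after seeing the data. Genes at or near 3 counts per library, such as Usp29, Phlda2 and Magel2 outside late cells, are limited by depth.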
